A study of Mus musculus with 13 samples.

Results

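Voltage-gated calcium channels let calcium into a cell when its membrane depolarises, and the gene family named Cacna1 encodes the pore subunit around which each channel is built. L-type channels carry the main calcium current of heart muscle, while T-type channels open at more negative voltages. In pacemaker cells of the sinoatrial node, which set the heartbeat, the Cacna1d and Cacna1g channels are known to contribute to the slow depolarisation between beats, and mice that lack either have a slow sinus rhythm. The 9 pore genes described here were taken by name out of 55487 gene IDs: the L-type genes Cacna1c, Cacna1d and Cacna1s, the T-type genes Cacna1g, Cacna1h and Cacna1i, and Cacna1a, Cacna1b and Cacna1e, which encode the P/Q-, N- and R-type channels known best from neurons. All 9 matched a single gene ID in the deposited table.

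RNA was sequenced from sorted pacemaker cells (PC) and sorted cardiomyocytes of the right atrium (RACM) of neonatal mouse hearts. All 6 libraries, 3 of each cell type, came from mice with an Hcn4-GFP and a Myh6-mCherry reporter, and each replicate pooled node and atrial junction tissue of 8 to 10 hearts. In the file headers the PC alignments are named RedGreen and those of RACM Red. The titles number the libraries p0, p2 and p4 in both cell types, and the labels do not say what that number stands for. Values of 3 libraries are given below in that order. ATAC-seq data from 7 more samples were not analysed here.

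Total counts lay between 18371816 and 22290996 in PC and between 14141151 and 19555932 in RACM. All 7 listed pacemaker markers, among them Isl1, Tbx3 and Shox2, were higher in PC. Hcn4 is also among them, and its reporter belongs to the sort. Of 8 cardiomyocyte markers 1 was higher in PC and none lower. RACM p4 stood apart, with 70668 CPM (counts relative to the TMM-scaled library size) of summed cardiomyocyte markers against 102368 and 99934 CPM in RACM p0 and p2, and with 10723 CPM of summed fibroblast markers against 1600.1 and 3687 CPM. The PC libraries had cardiomyocyte sums of 111016, 118483 and 110524 CPM and fibroblast sums of 847, 960.4 and 2174 CPM.

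The T-type genes Cacna1g and Cacna1h and the L-type gene Cacna1d were higher in PC, Cacna1g by 4.29-fold, Cacna1d by 3.22-fold and Cacna1h by 2.34-fold, while Cacna1c, the L-type gene of working heart muscle, did not differ beyond the spread between replicates. Of the 9 pore genes, 6 passed the filter on low counts and 3 of these passed edgeR's quasi-likelihood test at an adjusted p below 0.05, all higher in PC. Over the 18015 genes tested, 7.27% passed, 3.69% as higher and 3.57% as lower in PC. With the p number as a replicate block the same 3 genes passed, where 11.6% of all genes did, 5.96% as higher and 5.60% as lower in PC. Cacna1s passed the filter only through the PC libraries. The same 3 genes were the ones whose libraries did not overlap, a pattern found in 26.9% of all genes tested (13.5% with PC above and 13.4% with PC below). In sorted bulk samples, fewer cells with a transcript and less of it per cell cannot be told apart.

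**Figure D1:**
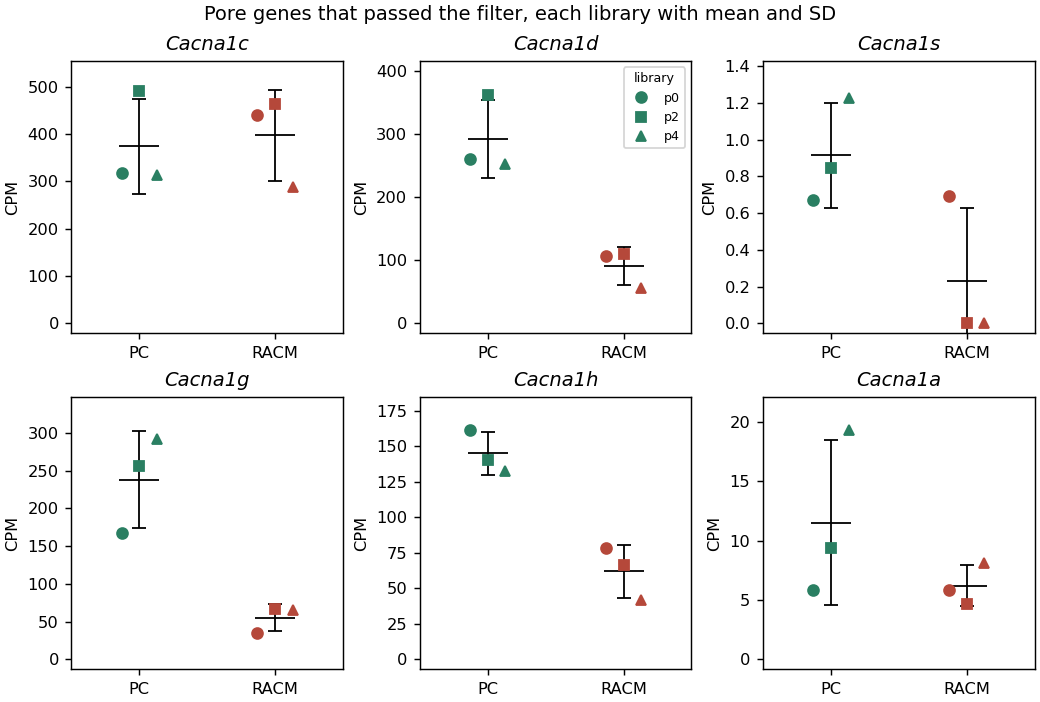
CPM of the 6 pore genes that passed the filter, with the PC libraries left and the RACM libraries right in each panel (circles p0, squares p2, triangles p4, bars mean and SD, n = 3). The PC libraries of Cacna1d, Cacna1g and Cacna1h lie above all RACM libraries, while those of Cacna1c, Cacna1s and Cacna1a overlap with them.

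Cacna1c (ENSMUSG00000051331, mm10 chromosome 6 from 118587240 to 119196890, minus strand) encodes the L-type pore that triggers contraction in the ventricle and atrium. It had 318, 491 and 313 CPM in PC, against 441, 463 and 288 CPM in RACM. The cell types overlapped, with the p4 library lowest in each. The log2 fold change was -0.09 ± 0.24 (SE, n = 3 each; edgeR adjusted p = 0.884), with a 95% interval from -0.64 to 0.46. Within the p numbers the PC over RACM ratio was 0.721, 1.06 and 1.09.

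Cacna1d (ENSMUSG00000015968, mm10 chromosome 14 from 30039939 to 30491455, minus strand) encodes the L-type pore that opens at more negative voltages than that of Cacna1c. It had 261, 363 and 252 CPM in PC, against 107, 110 and 55.5 CPM in RACM. Every PC library lay above every RACM library, and p4 was the lowest in both. The log2 fold change was 1.69 ± 0.28 (SE, n = 3 each; edgeR adjusted p = 0.00855), with a 95% interval from 1.06 to 2.31. The PC over RACM ratio was 2.45, 3.30 and 4.54 within p0, p2 and p4. Of its exon bases 4.85% also lie in other genes, mainly Chdh, and the counting took no account of strand.

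The table counts each gene as a whole, so it cannot say which start site or splice form of these L-type genes was used. RefSeq (build GRCm38.p6) lists several starts for both, and for each a start inside the gene follows a window rich in G and C. The stretches before those starts are shown to set the L-type gene that differed beside the one that did not, and those of Cacna1b and Cacna1i to set them beside pore genes with few or no counts. Each runs 5′ to 3′ along the gene's strand and stops where an exon of the deposited annotation begins or, for Cacna1b and Cacna1i, at the start. Capitals mark the letters GGGCGG, the core of an Sp1 site, on either strand, and in Cacna1i the T-box letters AGGTGT as read on the opposite strand. The Cacna1d stretch ends inside a copy of GGGCGG, whose first letters are also in capitals.
Cacna1d chr14:30353528-30353736, minus strand: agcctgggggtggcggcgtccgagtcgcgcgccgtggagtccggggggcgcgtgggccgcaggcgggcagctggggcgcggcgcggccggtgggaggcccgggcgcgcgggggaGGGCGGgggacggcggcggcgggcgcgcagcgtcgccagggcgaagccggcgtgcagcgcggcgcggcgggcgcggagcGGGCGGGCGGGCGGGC
Cacna1c chr6:119108574-119108745, minus strand: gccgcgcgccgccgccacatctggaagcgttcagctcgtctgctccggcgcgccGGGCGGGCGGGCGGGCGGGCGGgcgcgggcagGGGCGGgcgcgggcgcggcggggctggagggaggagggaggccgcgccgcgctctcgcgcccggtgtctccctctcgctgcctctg
Cacna1b chr2:24763153-24763402, minus strand: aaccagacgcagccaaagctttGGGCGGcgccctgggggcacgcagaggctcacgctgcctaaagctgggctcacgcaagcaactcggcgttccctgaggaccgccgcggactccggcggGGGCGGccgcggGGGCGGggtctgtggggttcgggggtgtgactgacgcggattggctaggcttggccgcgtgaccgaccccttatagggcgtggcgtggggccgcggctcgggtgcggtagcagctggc
Cacna1i chr15:80286988-80287237, plus strand: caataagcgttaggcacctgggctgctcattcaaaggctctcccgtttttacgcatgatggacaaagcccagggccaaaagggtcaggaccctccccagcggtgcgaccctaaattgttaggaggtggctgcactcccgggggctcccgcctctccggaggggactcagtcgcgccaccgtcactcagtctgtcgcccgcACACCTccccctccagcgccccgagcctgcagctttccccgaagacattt

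In the full 250 bases before these starts, G and C made up 86.4% of the Cacna1d window, 82.8% of the Cacna1c window, 72% of the Cacna1b window and 62.4% of the Cacna1i window, against a median of 52.4% over 32851 promoter windows. The windows held 50, 48, 29 and 16 CpG pairs in the same order, where the median window held 6. GGGCGG occurred 5 times for Cacna1d and 6 times for Cacna1c, with overlapping copies counted, 3 times for Cacna1b and not in Cacna1i, and 32.7% of all windows held it. The T-box letters AGGTGT, on either strand, were found in the Cacna1i window and in 11.8% of all windows. Also sought were letters of GATA, NKX2-5, MEF2, cAMP response element and LIM homeodomain sites. None of the 9 pore gene windows held any of these. Over all windows the shares were 9.99%, 40.7%, 3.2%, 1.55% and 4.84% in that order. Windows were at hand for 6 of the 9 pore genes, and for none of Cacna1a, Cacna1g and Cacna1h. The other 5 windows of pore genes were poorer in CpG. Cacna1s had 62.4% G and C with 9 CpG pairs, and Cacna1e 52% with 6, in a window that lies wholly within annotated exons. A further Cacna1c window had 50.4% with 5 CpG pairs and no GGGCGG. In the outermost listed window G and C made up 39.6% for Cacna1d and 51.6% for Cacna1c, with 2 CpG pairs each, and that window lies within annotated exons of the deposited table in both.

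Cacna1s, the L-type pore of skeletal muscle (ENSMUSG00000026407, mm10 chromosome 1 from 136052750 to 136119822), was near the limit of detection. It had 12, 15 and 26 counts in PC, against 10, 0 and 0 counts in RACM. Its 10 RACM counts all came from p0, where its CPM (0.691) was just above that of PC p0 (0.669). The sums of 53 and 10 counts gave a PC over RACM ratio of 4.85, with a 95% interval from 2.44 to 10.7 that covers counting error only, while the test across replicates did not pass (log2 fold change 2.04 ± 1.34, SE; edgeR adjusted p = 0.44). Of its exon bases 20% also lie in Gm37759. Summed skeletal muscle markers were at 327, 357 and 349 CPM in PC and at 374, 329 and 183 CPM in RACM, most of it Ckm, which heart muscle makes too. Of the 4 such markers that passed the filter 1 was higher in PC, the myosin gene Myh8, at 84.3, 89.6 and 94.2 CPM in PC, against 42.4, 29.8 and 41.9 CPM in RACM (edgeR adjusted p = 0.00558). Of the lineage's defining factors, Myog had 17, 20 and 3 counts in PC, against 1, 0 and 1 counts in RACM, and Myod1 had 0 counts in all 6 libraries. The part of such RNA in the counts of Cacna1s was not tested.

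Among T-type genes, Cacna1g (ENSMUSG00000020866, mm10 chromosome 11 from 94408391 to 94474198, minus strand) had the largest fold change of the called pore genes. It had 167, 256 and 292 CPM in PC, against 35.2, 66.2 and 65.0 CPM in RACM. The cell types were far apart, and p0 was the lowest library in both. The log2 fold change was 2.10 ± 0.29 (SE, n = 3 each; edgeR adjusted p = 0.00396), with a 95% interval from 1.44 to 2.76. Within p0, p2 and p4 the PC over RACM ratio was 4.74, 3.86 and 4.49, a narrower spread than the level itself had among PC libraries.

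Cacna1h (ENSMUSG00000024112, mm10 chromosome 17 from 25374285 to 25433783, minus strand), whose T-type channel is also known from smooth muscle and neurons, had 162, 141 and 133 CPM in PC, against 78.3, 66.2 and 41.8 CPM in RACM. The PC libraries lay close together and all above those of RACM, where p4 was again lowest. The log2 fold change was 1.23 ± 0.23 (SE, n = 3 each; edgeR adjusted p = 0.0157). Its call was lost without PC p0 (adjusted p = 0.0668) and without RACM p2 (adjusted p = 0.0632), and edgeR's adjusted p ran from 0.0131 to 0.0668 over the 6 fits that left out 1 library. The 8 smooth muscle and pericyte markers summed to 668, 430 and 707 CPM in PC and to 204, 297 and 672 CPM in RACM. Most of the PC sums was Acta2, at 482, 302 and 534 CPM in PC, against 82.3, 99.4 and 291 CPM in RACM. Acta2 did not pass (edgeR adjusted p = 0.0909). Of the 8 markers 3 were higher in PC (Myh11, Cnn1 and Cspg4) and 2 lower (Pdgfrb and Notch3). The part of these markers' cells in the Cacna1h difference was not tested.

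Cacna1i, the T-type gene known from thalamic neurons (ENSMUSG00000022416, mm10 chromosome 15 from 80287238 to 80398279), had 0 counts in all 6 libraries, which allows from 0.142 to 0.170 CPM in a PC library and from 0.144 to 0.207 CPM in a RACM library (3 counts, counting error only).

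Of the pore genes known from neurons, Cacna1a was measured in every library and did not differ beyond the spread between replicates. Cacna1a (ENSMUSG00000034656, mm10 chromosome 8 from 84338639 to 84640246), the P/Q-type pore, had 5.85, 9.39 and 19.3 CPM in PC, against 5.87, 4.67 and 8.08 CPM in RACM. The groups overlapped, and p4 was the highest library in both. Its log2 fold change was 0.89 ± 0.46 (SE, n = 3 each; edgeR adjusted p = 0.322), with a 95% interval from -0.15 to 1.94, and it was 0.29 without PC p4.

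Cacna1b, the N-type pore (ENSMUSG00000004113), had 0, 1 and 0 counts in PC, against 0, 2 and 10 counts in RACM. Cacna1e, the R-type pore (ENSMUSG00000004110), had 0, 1 and 1 counts in PC, against 0, 0 and 52 counts in RACM. Neither passed the filter, and with no filter neither passed edgeR's test (adjusted p = 0.463 for Cacna1b and 0.115 for Cacna1e). RACM p4 held 10 of the 12 RACM counts of Cacna1b and all 52 of Cacna1e. It was the library with the largest sums of fibroblast markers and of macrophage markers (647 CPM, against 137 and 384 CPM in RACM p0 and p2), whose part was not tested. Among neuron markers Uchl1 was at 134, 93.2 and 110 CPM in PC, against 6.01, 4.73 and 5.34 CPM in RACM. Elavl4 was at 4.07, 3.22 and 1.37 CPM in PC, against 6.42, 3.83 and 2.45 CPM in RACM, with overlap (edgeR adjusted p = 0.658). The other listed neuron markers had at most 1.23 CPM in any library, and Snap25 and Chat at most 0.339 CPM. Of 2 related pore genes outside the rule, chosen after their values were seen, Cacna1f had 0 counts in PC and 7 in RACM, and the leak channel gene Nalcn 0 in PC and 8 in RACM.

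**Figure D2:**
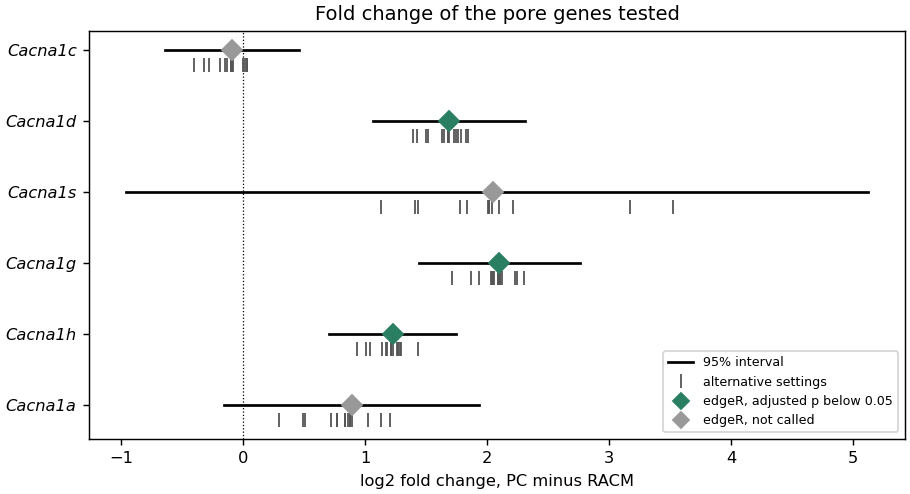
Log2 fold change of PC minus RACM for the 6 pore genes tested (diamonds, with their 95% interval; green passed the edgeR test). Small ticks are the same value under the alternative settings, which for Cacna1d, Cacna1g and Cacna1h all lie above 0.

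To set the genes beside each other, CPM was divided by the length in kilobases of the exons counted for each gene. In PC the order of these levels was Cacna1g (23.5 ± 6.34 CPM per kilobase, SD, n = 3), Cacna1d (19.2 ± 4.04), Cacna1c (17.1 ± 4.62) and Cacna1h (14.9 ± 1.54). Each neighbour in that order overlapped with the next, though Cacna1d was above Cacna1c in all 3 PC libraries. Cacna1a followed far below at 0.936 ± 0.567 CPM per kilobase, then Cacna1s at 0.14 ± 0.044. Cacna1b and Cacna1e, at 1 and 2 counts in all, overlapped, and Cacna1i was last at 0 counts.

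In RACM Cacna1c stood alone at the top with 18.2 ± 4.38 CPM per kilobase (SD, n = 3), above every library of the next gene. Cacna1h (6.36 ± 1.90), Cacna1d (5.98 ± 2.01) and Cacna1g (5.47 ± 1.73) formed a second group whose libraries overlapped. Cacna1a was at 0.504 ± 0.141 CPM per kilobase, and Cacna1s, Cacna1e and Cacna1b overlapped near the limit of detection. The exon lengths behind this order ran from 21864 bases for Cacna1c and 15183 for Cacna1d to 10137 for Cacna1g and 9763 for Cacna1h, and on CPM with no length scaling Cacna1c was the highest gene in both cell types.

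The make-up of the L-type pool differed between the cell types. Cacna1d was 54.0%, 51.4% and 53.4% of the summed L-type level per kilobase in PC, against 25.7%, 25.5% and 21.8% in RACM. The means were 52.9% ± 1.35 in PC and 24.3% ± 2.23 in RACM (SD, n = 3), a gap more than 10 times the SD of either group. A 2-sided exact permutation test gave p = 0.1, the smallest that 3 libraries against 3 allow. On CPM with no length scaling the mean shares of Cacna1d were 44.0% in PC and 18.3% in RACM. The summed L-type level itself was 31.9, 46.5 and 31.1 CPM per kilobase in PC, against 27.3, 28.4 and 16.8 in RACM, without overlap per kilobase but with overlap on CPM (exact permutation p = 0.1 and p = 0.2, 2-sided).

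The T-type pool was larger in PC, while the shares within it overlapped. Summed T-type levels were 33.1, 39.6 and 42.4 CPM per kilobase in PC, against 11.5, 13.3 and 10.7 in RACM (exact permutation p = 0.1, 2-sided). Per kilobase, T-type genes made up 50.9% ± 5.43 of all pore gene levels in PC and 32.9% ± 4.41 in RACM (SD, n = 3), with no overlap. On CPM with no length scaling that share was 36.5% ± 5.31 in PC and 19.6% ± 3.20 in RACM, also with no overlap. Within the T-type pool Cacna1g was 49.8%, 63.7% and 67.9% in PC, against 30.2%, 49.1% and 60.0% in RACM. Here the groups overlapped (exact permutation p = 0.2, 2-sided), while within the p numbers the mean difference was 14.03 points with an SE of 3.39 (exact sign flips, p = 0.25), and in both cell types p0 had the smallest and p4 the largest share.

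**Figure D3:**
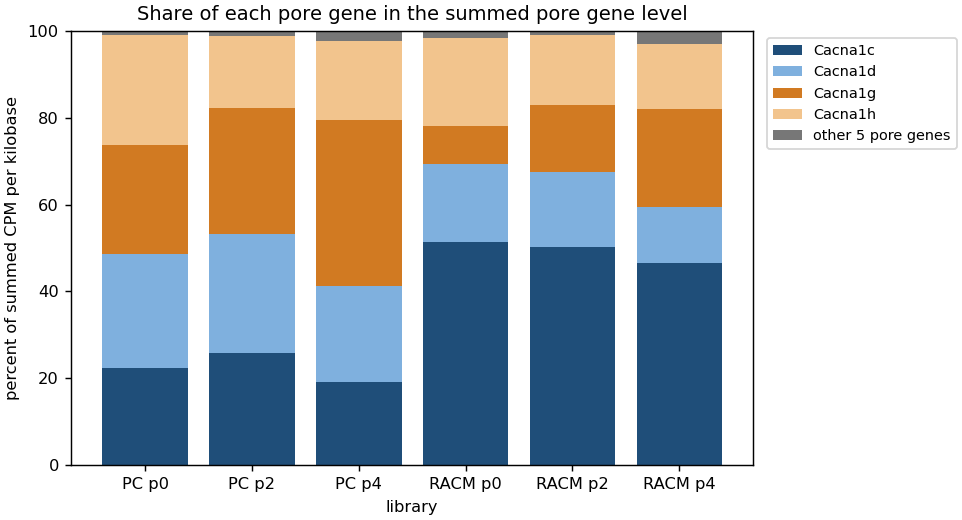
Percent of the summed CPM per kilobase of the 9 pore genes taken by each gene in each library, PC libraries left and RACM libraries right. Cacna1c takes from 19.1% to 25.8% in PC and from 46.5% to 51.4% in RACM, and the 5 genes drawn together in grey take a few percent at most.

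Relative to Cacna1c in the same library, all 3 called genes were higher in PC, a measure whose difference between cell types does not depend on gene length. The 3 genes had been called in these same libraries and Cacna1c had not. These ratios and their tests therefore restate the calls and give them no separate support. The log2 ratio of Cacna1d to Cacna1c was 0.24, 0.09 and 0.21 in PC, against -1.52, -1.55 and -1.85 in RACM. Per kilobase, levels of Cacna1d and Cacna1c were thus close to even in every PC library. That evenness does depend on gene length. On CPM with no length scaling Cacna1c was above Cacna1d in each PC library (318, 491 and 313 against 261, 363 and 252 CPM). The SD of the log2 ratio was 0.08 in PC and 0.18 in RACM. The difference of means was 1.82 for Cacna1d, 2.21 for Cacna1g and 1.36 for Cacna1h, each with no overlap. The 6 pairs among the 4 genes were compared by 2-sided exact permutation tests, where these 3 had p = 0.1 (0.2 after Benjamini-Hochberg adjustment over the 6).

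Between the 3 called genes the ratios overlapped between the cell types. The log2 ratio of Cacna1d to Cacna1g differed between cell types by -0.39 (exact permutation p = 0.5), that of Cacna1d to Cacna1h by 0.46 and that of Cacna1g to Cacna1h by 0.85 (p = 0.2 each, exact permutation). Within p0, p2 and p4, a comparison added after seeing the data, the PC minus RACM difference in the log2 ratio of Cacna1g to Cacna1h was 1.20, 0.86 and 0.50, higher in PC in 3 of 3 pairs. That of Cacna1d to Cacna1h was 0.24, 0.63 and 0.51, also higher in 3 of 3, and exact sign flips gave p = 0.25 for both, the smallest that 3 pairs allow. The ratio of Cacna1d to Cacna1g spread widely within RACM, at 1.02, 0.15 and -0.81 on the log2 scale in p0, p2 and p4. In PC it was 0.06, -0.08 and -0.79, so p4 was the lowest in both cell types.

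**Figure D4:**
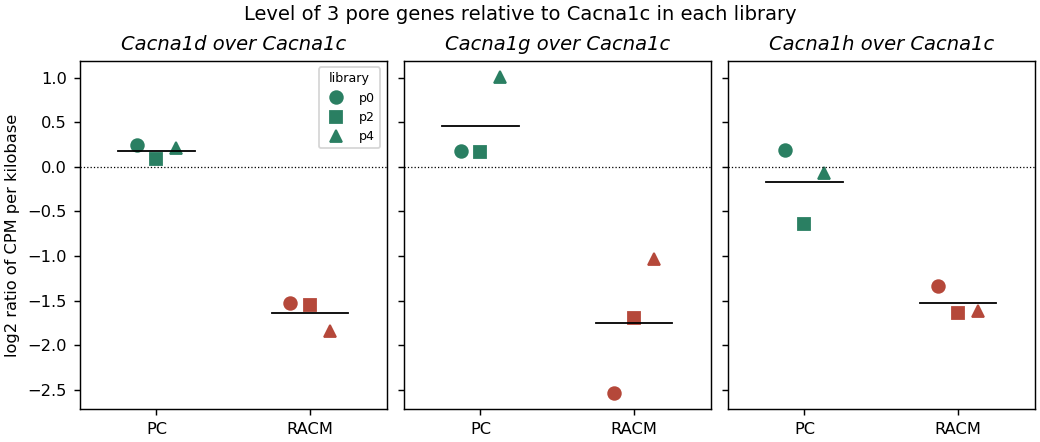
Log2 ratio of the level per kilobase of Cacna1d, Cacna1g and Cacna1h to that of Cacna1c in each library (lines are means). The PC libraries lie above the RACM libraries in all 3 panels, and the PC libraries of Cacna1d lie closest together.

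Genes with the most similar pattern were sought for the 4 pore genes with a mean of at least 10 CPM, by the root mean square distance of centred log2 CPM over the 6 libraries, among 9286 other genes. Nearest to Cacna1d were Hlf (distance 0.117), Atp8a2 (0.139) and Rgs6 (0.148). Nearest to Cacna1g were 4631405J19Rik (0.202), Ntm (0.216) and Stim1 (0.267), and nearest to Cacna1h were Atp1b2 (0.0643), Tnfrsf19 (0.0848) and Synpo2 (0.0946). Cacna1c was followed most closely by Magi1 (0.0538), Lrrfip2 (0.0824) and Nos1ap (0.0905). Of the pore genes the closest pair was Cacna1d and Cacna1h, at a distance of 0.322, which ranked 47 from the side of Cacna1d and 204 from the side of Cacna1h.

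Auxiliary subunits assemble with L-type pores and set their surface level and gating. Of 4 beta subunit genes 2 were higher in PC and none lower, where 3.69% of all genes tested were higher and 3.57% lower. Their median log2 fold change was 0.92, against 0.01 over all genes tested. Cacnb2, the main beta subunit of heart, was at 245, 380 and 308 CPM in PC, against 147, 151 and 109 CPM in RACM (log2 fold change 1.20 ± 0.21, SE; edgeR adjusted p = 0.0108), and the call was lost without both p4 libraries (adjusted p = 0.0515). Cacnb4, a beta subunit known from brain, was at 16.6, 32.6 and 25.7 CPM in PC, against 5.04, 4.85 and 3.90 CPM in RACM (log2 fold change 2.44 ± 0.31, SE; edgeR adjusted p = 0.00254), and 16% of its exon bases also lie in other genes. Cacnb3, at 9.48, 15.8 and 10.3 CPM in PC and 21.0, 21.8 and 28.2 CPM in RACM, did not pass (edgeR adjusted p = 0.0584). It passed as lower in PC with the replicate block (adjusted p = 0.0371), by DESeq2 (0.00963) and by limma-voom (0.0492). By edgeR it also passed with the filter of 5 CPM (0.0428), with no filter (0.027), with scaling to summed cardiomyocyte markers (0.0386) and without PC p2 (0.0395). Under the other alternatives it did not pass, with adjusted p up to 0.276.

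Of 4 alpha2delta genes, whose proteins carry the pore to the membrane, 1 was higher and 1 lower in PC, with a median log2 fold change of -0.06. The shares over all genes tested were 3.69% higher and 3.57% lower. Cacna2d2 was at 1161, 1464 and 1113 CPM in PC, against 355, 378 and 148 CPM in RACM, with no overlap (log2 fold change 2.09 ± 0.33, SE; edgeR adjusted p = 0.00746). Cacna2d3 was low, with 18, 24 and 41 counts in PC against 86, 143 and 118 counts in RACM (log2 fold change -2.22 ± 0.46, SE; edgeR adjusted p = 0.0229). Its call did not hold when RACM p2 or p4, or PC p0 or p2, was left out (edgeR adjusted p from 0.0534 to 0.125). Cacna2d1 did not pass (log2 fold change 0.53, edgeR adjusted p = 0.062). It passed as higher in PC with the replicate block (adjusted p = 0.0376), by DESeq2 (0.0162) and by edgeR with the filter of 5 CPM (0.0493). Under the other alternatives it did not pass, with adjusted p up to 0.618.

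Of 8 gamma subunit genes and relatives 1 passed the filter, Cacng7, with 21, 1 and 4 counts in PC, against 25, 58 and 201 counts in RACM. It did not pass (edgeR adjusted p = 0.0908), and it passed as lower in PC by DESeq2 (adjusted p = 0.00521) and by edgeR with no filter (adjusted p = 0.00319). Over all alternatives its adjusted p ran from 0.00319 to 0.43. Among 13 of 16 listed regulators that passed the filter 1 was higher in PC and none lower, with a median log2 fold change of -0.02. That count is about the share over all genes tested, 7.27% in either direction. The higher gene, Jph2, a junctophilin that holds the sarcoplasmic reticulum beside surface calcium channels, was at 133, 157 and 123 CPM in PC, against 70.1, 89.6 and 87.6 CPM in RACM (log2 fold change 0.74 ± 0.17, SE; edgeR adjusted p = 0.0328). That call did not hold when any 1 library other than PC p4 was left out (edgeR adjusted p from 0.0697 to 0.101), nor with upper-quartile scaling (0.0503) or with scaling to summed cardiomyocyte markers (0.418). Rrad, a small G protein that inhibits L-type channels, was at 200.5, 214 and 209.8 CPM in PC and 162, 135 and 107 CPM in RACM and did not pass (log2 fold change 0.63, edgeR adjusted p = 0.0694). It passed as higher in PC with the replicate block (adjusted p = 0.0341) and by DESeq2 (0.0188). By edgeR it also passed with no filter (0.0375) and without RACM p0 (0.0362). Under the other alternatives it did not pass, with adjusted p up to 0.379.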

How the data were processed

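The members and gene lists were chosen with earlier results of these data known. The authors deposited raw counts of fragments per gene, made with featureCounts 2.0.1 over exons of an mm10 annotation per the file headers, with no option set for strand or for reads mapping to several places. Per the submitters' processing notes, reads went through Trimmomatic and HISAT2, with no version given. Per the labels' protocols, libraries came from the Ovation RNA-Seq kit (System V2), read as 100-bp pairs. The other deposited column used is the exon length in bases per gene, per the file headers.

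Of 55487 gene IDs, 55141 matched a symbol. Genes passing filterByExpr (minimum count 10, minimum total 15) were tested, 18015 in all, with TMM scaling and edgeR 4.0.16 (glmQLFit and glmQLFTest, 2-sided, R 4.3.3), p-values adjusted by Benjamini-Hochberg over all of them, threshold 0.05. CPM was computed on the scaled totals. Every difference is PC minus RACM. Count ratios carry a 95% exact binomial interval, and the limit for a count of 0 is 3 counts. Single values were compared by exact permutation. Nothing but the labels' words on replicates says that libraries came from separate animals, so p-values measure the spread between these pools. Likeness used log2(CPM + 0.5). Named were all 9 pore genes, the genes of other subunit lists that passed or otherwise those of smallest p, and the 3 most similar genes. Cacnb3, Cacna2d1 and Rrad fall outside this rule and were chosen after their values were seen. The same holds for the named markers that did not pass: Myh6, Acta2, Ckm, Myog, Myod1, Elavl4, Snap25 and Chat. The marker lists served as checks: of the genes measured, 0 rose and 1 fell of 8 fibroblast, 0 and 1 of 8 endothelial, 3 and 2 of 8 smooth muscle and pericyte, 0 and 6 of 8 macrophage, 1 and 0 of 3 neuron, 0 and 0 of 3 Schwann cell and 1 and 0 of 4 skeletal muscle markers. Over all genes tested 3.69% rose and 3.57% fell in PC.

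Deviations from the cell type mean correlated between libraries of the same p number by 0.156, 0.234 and 0.237 (p0, p2 and p4). The main fit did not pair the libraries, as no label states a pairing. Only the replicate block and the comparisons within p numbers took the numbers as pairs, which rests on these values. A fit with the number as replicate block called 2082 genes, 11.6% of those tested. Replicates differed beyond sampling noise (chi-square per degree of freedom from 29.5 to 74.6). DESeq2 1.42.0, limma-voom (limma 3.58.1) and other scalings and filters were alternatives. The tests were checked on simulated data.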

Additional observations from a re-analysis of the deposited data

How the results depend on the processing

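Cacna1d and Cacna1g passed under all 15 alternatives, with log2 fold changes from 1.39 to 1.85 and from 1.71 to 2.30, and Cacna1h under 13 of 15 (0.93 to 1.44). The number of pore genes called was 3 in every alternative except without PC p0 and without RACM p2, where it was 2. The count over all genes was 1309 of 18015 tested. It was 2339 with no filter, where 33066 genes were tested. Of 18015 genes tested it was 2304 by DESeq2 and 2082 with the replicate block. Without both p4 libraries (chosen after seeing the data) it was 734 of 18037. Without 1 library it was from 511 to 1338, with 18872 to 19443 genes tested. It fell below 1309 by over 1.5 times when RACM p2 (511), PC p0 (570), RACM p4 (727) or PC p2 (763) was left out. The replicate block changed no call of a pore gene. Cacna1c changed sign in 4 of the fits that left out 1 library, which ranged from -0.321 to 0.0345. Scaling to the summed cardiomyocyte markers, also chosen after seeing the data, moved the median of all genes to -0.35 and left 301 genes higher and 881 lower in PC (665 and 644 with TMM). Relative to that median the pore genes stood at 1.74 (Cacna1d), 2.06 (Cacna1g), 1.28 (Cacna1h) and -0.06 (Cacna1c). The Cacna1d share of L-type levels was from 25.7 to 29.4 points higher in PC over its alternatives, the Cacna1g share of T-type levels from 5.93 to 20.8, and the T-type share of pore levels from 15.2 to 20.7, with both ends of the Cacna1g range set by leaving out 1 library. Cacna1s ran from 1.14 (without both p4) to 3.53 (limma-voom). Without RACM p0 it did not pass (edgeR adjusted p = 0.0562), and its fold is left out because both remaining RACM libraries had 0 counts. Shares by coding length were not run. Depth limits Cacna1b, Cacna1e, Cacna1i and Cacna1s.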
